A study of Mus musculus with 6 samples.

Results

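The antibody light chain genes described here are Igkc, which encodes the constant region of the kappa light chain, Iglc2, which encodes a constant region of the lambda light chain, and the lambda variable genes Iglv1, Iglv2 and Iglv3. They were taken by name from 7 genes that make up the mouse kappa constant region and the main functional lambda locus. Of these 7, 5 had a row among the 35275 genes listed, and Iglc1 and Iglc3 were not analysed here. Splenic B cells of CD40LΔ5 mice and of wild-type mice (WT), all on the C57BL/6 strain and 6 to 8 weeks old, were compared 8 days after injection of SRBC, the abbreviation the labels use for the immunising agent. There were 3 libraries of each genotype, all from immunised mice, and B cells were obtained from spleen with a magnetic pan-B isolation kit before total RNA was made into TruSeq libraries. CD40L is the ligand with which T helper cells engage CD40 on B cells, and the labels do not say what the Δ5 allele lacks. They do not say either that each library came from its own animal, so the p-values measure only the spread between these libraries.

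Each B cell normally makes 1 kind of light chain, which pairs with the heavy chain to form the antigen receptor and, after differentiation into a plasma cell, the secreted antibody. In the mouse most B cells use kappa. The lambda locus is small, and each variable gene joins mainly to nearby constant genes: Iglv1 mainly to Iglc3 and Iglc1, and Iglv2 and Iglv3 mainly to Iglc2. Plasma cells make far more light chain RNA per cell than resting B cells do.

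The deposited table of group means did not follow the sample labels. Its MUT column equalled the mean of the libraries labelled CD40LΔ5 replicate 2, WT replicate 1 and WT replicate 2, and its WT column the mean of CD40LΔ5 replicates 1 and 3 and WT replicate 3, with a largest difference of 3.33e-08 FPKM. Only 2 of the 6 libraries were placed alike by both. The tests of the light chain genes and the direction counts of the gene lists are therefore given for both placements. Most other single genes are given as labelled only, and their differences in the table's placement can have another size or direction. Libraries are named by their labels. Each library held between 24320080 and 27866611 reads on genes. Of 8 B cell markers 7 were found, none at 0, and their summed level was 9719 to 10687 FPKM in CD40LΔ5 libraries and 9543 to 12083 FPKM in WT libraries.

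The sequences below show how far the light chain genes resemble each other, which bears on how reads can be told apart. They are the first 120 bases of the constant exons and a matching stretch of 2 variable genes, written 5′ to 3′ on the coding strand of GRCm38, from GENCODE M21. In the constant genes, Igkc lies at chr6:70726435-70726554 on the plus strand, Iglc2 at chr16:19198733-19198852, Iglc3 at chr16:19065562-19065681 and Iglc1 at chr16:19061952-19062071, all 3 on the minus strand. Capitals in Iglc3 and Iglc1 mark bases that differ from Iglc2, 7 in Iglc3 and 28 in Iglc1.
Igkc: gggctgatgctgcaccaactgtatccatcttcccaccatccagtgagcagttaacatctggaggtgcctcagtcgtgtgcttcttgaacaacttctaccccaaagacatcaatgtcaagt
Iglc2: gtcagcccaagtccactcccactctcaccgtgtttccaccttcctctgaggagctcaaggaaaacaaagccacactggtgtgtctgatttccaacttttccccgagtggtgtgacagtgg
Iglc3: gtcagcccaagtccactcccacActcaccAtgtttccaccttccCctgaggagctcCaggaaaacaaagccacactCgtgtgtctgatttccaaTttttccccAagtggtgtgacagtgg
Iglc1: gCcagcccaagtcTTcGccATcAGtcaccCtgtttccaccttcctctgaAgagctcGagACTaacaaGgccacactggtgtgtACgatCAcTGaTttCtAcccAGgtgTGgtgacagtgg

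For the variable genes, Iglv1 is shown at chr16:19085202-19085321 and Iglv2 at chr16:19260586-19260705, both on the minus strand, and capitals in Iglv2 mark the 4 bases that differ from Iglv1.
Iglv1: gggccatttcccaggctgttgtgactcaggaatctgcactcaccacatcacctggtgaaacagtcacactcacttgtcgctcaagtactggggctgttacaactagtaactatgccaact
Iglv2: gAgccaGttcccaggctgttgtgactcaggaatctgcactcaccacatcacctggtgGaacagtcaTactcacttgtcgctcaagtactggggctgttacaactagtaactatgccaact

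Over the whole coding exon, Iglc2 and Iglc3 were identical at 96.2% of positions, Iglc2 and Iglc1 at 73.4%, and Igkc and Iglc2 at 53.9%. Iglv1 and Iglv2 were identical at 97.0% of positions, whereas Iglv3 matched Iglv1 at 54.0% and Iglv2 at 52.7%. Of the 50-base windows of the deposited Iglc2 model, 7.72% also occurred in another of the 394 immunoglobulin genes searched, namely Iglc3, and the share was 25.2% for Iglv1 and 25.4% for Iglv2, which share windows with each other. For Igkc and Iglv3 no such window was found. With 100-base windows the share was 0 for Iglc2, 1.98% for Iglv1 and 2.01% for Iglv2. Neither read length nor how reads with several matches were treated is given in the sources used here. The levels of Iglc2, Iglv1 and Iglv2 are therefore uncertain, and reads of Iglc3 counted under Iglc2 cannot be told apart from its own. The window shares do not measure this uncertainty, which depends also on the level of the matching gene. In CD40LΔ5 replicate 1, for example, Iglv1 had 17283 reads and Iglv2 1917, so shared reads could weigh more on Iglv2.

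The deposited gene models also differ in what they cover. The Igkc model (ENSMUSG00000076609, chromosome 6, 70726435 to 70726757, plus strand) has 323 bases and ends with the coding part. The Iglc2 model (ENSMUSG00000076937, chromosome 16, 19198401 to 19200351, minus strand) has 606 bases: the constant exon with its trailing untranslated part, and an upstream exon of 154 bases that holds the joining segment Iglj2. Iglv1 (ENSMUSG00000076934) lies at 19085017 to 19085460, Iglv3 (ENSMUSG00000076939) at 19241211 to 19241679 and Iglv2 (ENSMUSG00000076940) at 19260401 to 19260844, all on the minus strand of chromosome 16, with models of 351, 366 and 348 bases. The library kit does not mark strand, so reads from antisense transcripts over these genes cannot be told apart from theirs. All levels below are in FPKM, reads scaled by model length and by the reads of the library, so that genes of different length can be compared.

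Igkc, the kappa constant gene, had the highest FPKM of all genes in each of the 6 libraries. Its level was 22769, 14373 and 52175 FPKM in CD40LΔ5 libraries 1 to 3, and 18745, 48166 and 50281 FPKM in WT libraries 1 to 3. Each genotype held both high and low libraries, 1 high and 2 low in CD40LΔ5 and 2 high and 1 low in WT, and the groups overlapped. The highest level was 3.63 times the lowest. These levels came from 115299 to 469624 reads, so counting error is small beside the spread between libraries.

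Iglc2, the lambda constant gene analysed, was much lower and varied much less. It had 873, 1116 and 1203 FPKM in CD40LΔ5 libraries 1 to 3 and 1119, 1269 and 1026 FPKM in WT libraries 1 to 3. The highest level was 1.45 times the lowest, from 14381 to 20322 reads, and the libraries with the least Igkc were not those with the least Iglc2.

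Iglv1, the variable gene used by most lambda chains of laboratory mice, varied like Igkc and not like Iglc2. Its level was 1812, 1061 and 3990 FPKM in CD40LΔ5 libraries 1 to 3 and 1366, 3010 and 3274 FPKM in WT libraries 1 to 3. The 2 libraries with the least Igkc, CD40LΔ5 replicate 2 and WT replicate 1, also had the least Iglv1, and the 3.76-fold range was close to that of Igkc. Iglv1 ranked above Iglc2 in 5 of the 6 libraries, and below it in CD40LΔ5 replicate 2.

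Iglv2 and Iglv3, the variable genes that join mainly to Iglc2, were lower still. Iglv2 had 203, 248 and 398 FPKM in CD40LΔ5 libraries 1 to 3 and 345, 288 and 377 FPKM in WT libraries 1 to 3, a 1.96-fold range. Iglv3 had 252, 264 and 341 FPKM in CD40LΔ5 libraries 1 to 3 and 251, 283 and 331 FPKM in WT libraries 1 to 3, a 1.36-fold range and the narrowest of the 5 genes. Iglv2 was the higher of the pair in 4 libraries and Iglv3 in the other two, with ratios of Iglv2 to Iglv3 between 0.805 and 1.38. By level the order was Igkc, Iglv1, Iglc2 and then this pair. The ranges of Iglv1 and Iglc2 overlapped, as did those of Iglv2 and Iglv3, while Igkc stood above all others in every library.

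**Figure D1:**
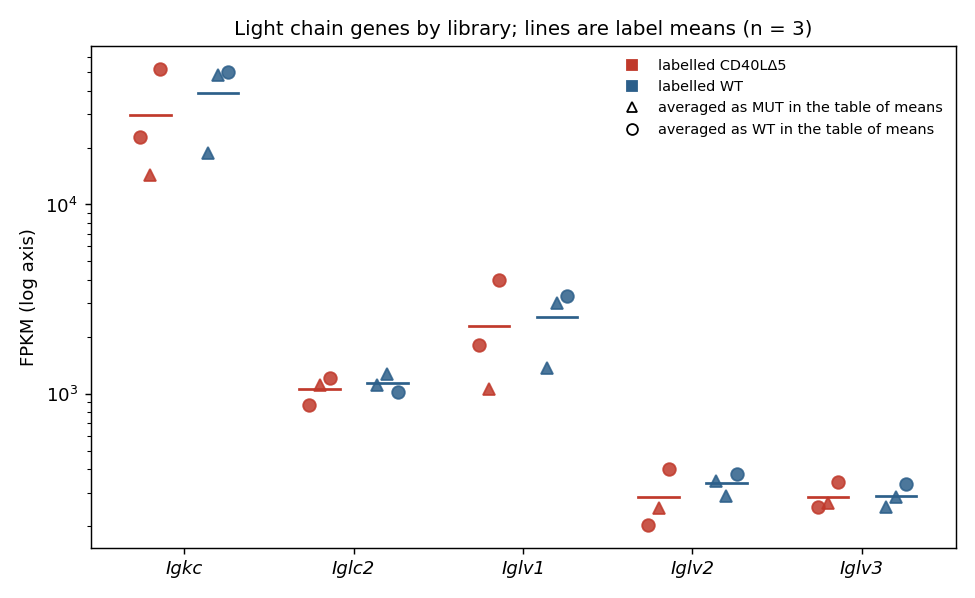
Level of each light chain gene in FPKM on a log axis, with 1 point per library and lines at the mean of the 3 libraries of each label group, CD40LΔ5 left of WT; triangles are libraries averaged as MUT in the table of means and circles those averaged as WT. The points of Igkc and Iglv1 spread over a 3.63-fold and a 3.76-fold range, those of Iglc2 and Iglv3 over a 1.45-fold and a 1.36-fold range, and the groups overlap for each gene.

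None of the 5 genes passed the test between the genotypes as labelled. Igkc averaged 29772 ± 19850 FPKM in CD40LΔ5 libraries and 39064 ± 17628 FPKM in WT libraries (SD, n = 3 each), a log2 difference of -0.47 with a standard error of 0.70 and a 95% interval of -2.15 to 1.21 (limma on log2(FPKM + 1), Benjamini-Hochberg adjusted p = 0.999993). The interval spans large differences in both directions. Iglc2 averaged 1064 ± 171 FPKM in CD40LΔ5 libraries and 1138 ± 122 FPKM in WT libraries, and its interval was the tighter one, at -0.53 to 0.32 around a log2 difference of -0.10. The log2 difference was -0.27 ± 0.55 for Iglv1, -0.30 ± 0.25 for Iglv2 and -0.018 ± 0.16 for Iglv3 (estimate ± SE), each with an adjusted p of 0.999993. Across all 11252 genes tested, limma called 0 (0%), with 139 at an unadjusted p under 0.05, and limma on weighted reads (voom) also called 0, with 129 at that level. The groups did not overlap for 0 of the 5 genes, beside 4.29% of all genes tested.

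With the libraries placed as in the table of means, again 0 of the 5 genes were called, against 0.0267% of all genes tested. Igkc averaged 27095 ± 18378 FPKM in the MUT set and 41742 ± 16458 FPKM in the WT set (SD, n = 3 each), a log2 difference of -0.73 ± 0.56 (SE, limma adjusted p = 0.563). Iglv1 averaged 1812 ± 1048 FPKM in the MUT set and 3026 ± 1110 FPKM in the WT set, a log2 difference of -0.81 ± 0.44 (limma adjusted p = 0.449). Iglc2 averaged 1168 ± 87.5 FPKM in the MUT set and 1034 ± 165 FPKM in the WT set, a log2 difference of 0.18 ± 0.15 (limma adjusted p = 0.582). The estimates for Igkc and Iglv1 were thus negative and that for Iglc2 positive, none past the threshold. Iglv2 and Iglv3 had log2 differences of -0.10 ± 0.27 and -0.20 ± 0.14. The sets overlapped for each of the 5 genes, beside 16.9% of all genes tested whose sets did not.

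**Figure D2:**
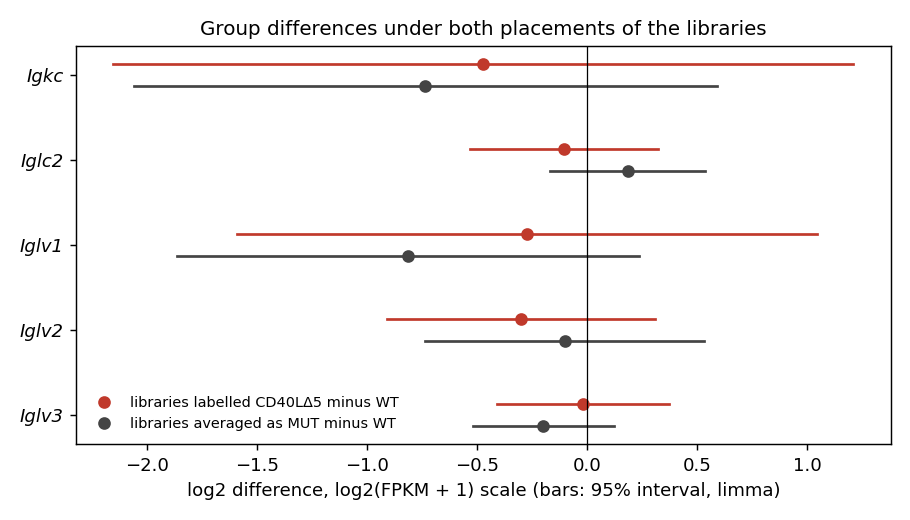
Log2 difference of each light chain gene from limma with its 95% interval, CD40LΔ5 minus WT as labelled and MUT minus WT as placed in the table of means. Each interval includes 0, and those of Igkc and Iglv1 are the widest.

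The lambda to kappa ratio was taken as Iglc2 over Igkc. It leaves out Iglc3 and Iglc1, to which Iglv1 mainly joins, and so covers only part of the lambda chains. Together the 3 lambda variable genes amounted to 9.95%, 10.9% and 9.06% of the Igkc level in CD40LΔ5 libraries 1 to 3. In WT libraries 1 to 3 they amounted to 10.5%, 7.43% and 7.92%, and the range over all libraries was 1.47-fold. Iglc2 amounted to 3.84%, 7.76% and 2.31% of the Igkc level in CD40LΔ5 libraries 1 to 3, and to 5.97%, 2.63% and 2.04% in WT libraries 1 to 3. It was highest in CD40LΔ5 replicate 2 and WT replicate 1, the libraries with the least Igkc, and the highest value was more than 3 times the lowest. The mean was 4.64% ± 2.82 in CD40LΔ5 libraries and 3.55% ± 2.12 in WT libraries (SD, n = 3 each), and 5.46% ± 2.60 in the MUT set against 2.73% ± 0.968 in the WT set. The groups overlapped in both placements. On the log2 scale the CD40LΔ5 minus WT difference was 0.37, and it was -0.0955 without CD40LΔ5 replicate 2, so that its direction rested on this library.

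Iglv1 over Igkc was far steadier. Iglv1 amounted to 7.96%, 7.38% and 7.65% of the Igkc level in CD40LΔ5 libraries 1 to 3 and to 7.29%, 6.25% and 6.51% in WT libraries 1 to 3. All 3 CD40LΔ5 values lay above all 3 WT values, with means of 7.66% ± 0.287 in CD40LΔ5 and 6.68% ± 0.541 in WT (SD, n = 3 each). The nearest values of the groups were 7.38% in CD40LΔ5 and 7.29% in WT. As placed in the table of means, the values overlapped, at 6.97% ± 0.630 in the MUT set and 7.37% ± 0.761 in the WT set. Of 12 ratios between these genes and their partners that were computed, the label groups did not overlap in 1, this ratio, and the table's sets did not overlap in 2, given below. Over all genes tested, the share of single genes without overlap was 4.29% as labelled and 16.9% in the table's placement. No such share was computed for ratios of other genes, and the 12 ratios have genes in common, so nothing is read from either count. The single ratio as labelled is given as a description. No p is given for these ratios, since their members were chosen with earlier results known.

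**Figure D3:**
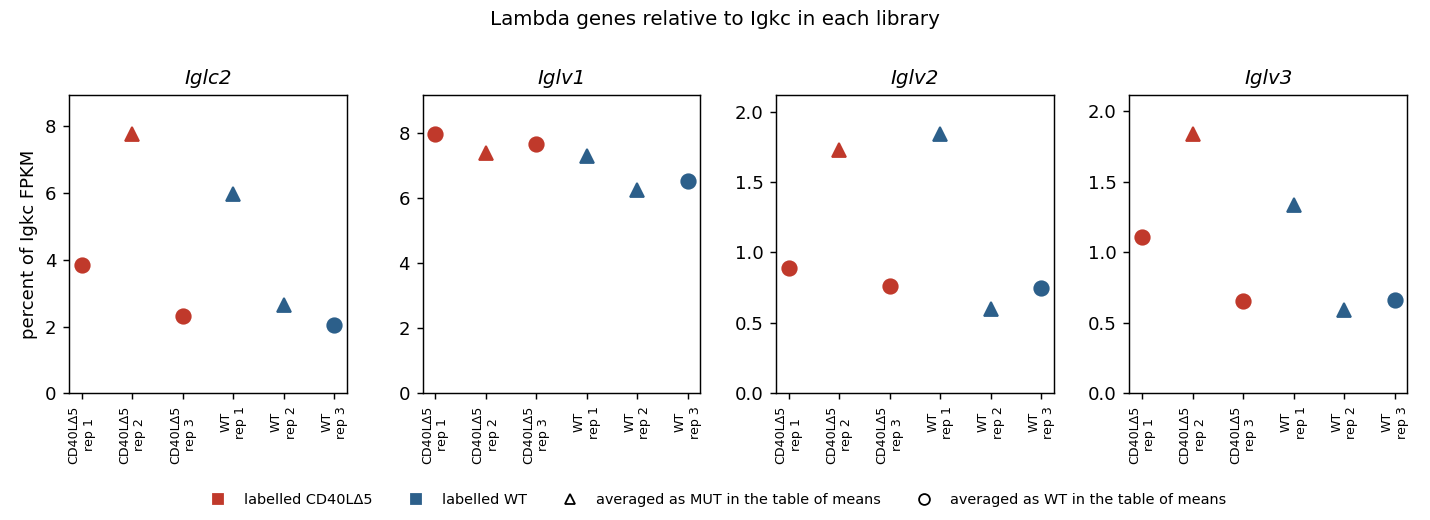
Ratios of lambda genes to Igkc in percent of the Igkc FPKM, with 1 point per library and CD40LΔ5 left of WT; triangles are libraries averaged as MUT in the table of means and circles those averaged as WT. Iglc2 spreads between 2.04% and 7.76% and Iglv1 stays between 6.25% and 7.96%.

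Within the lambda locus the mix of variable genes differed between libraries. Iglv1 made up 80.0%, 67.4% and 84.4% of the summed FPKM of the 3 lambda variable genes in CD40LΔ5 libraries 1 to 3 and 69.7%, 84.0% and 82.2% in WT libraries 1 to 3. The share was again lowest in CD40LΔ5 replicate 2 and WT replicate 1. In reads, Iglv1 had 67.1% to 84.2% of the lambda variable reads in CD40LΔ5 libraries and 69.4% to 83.8% in WT libraries, and the widest 95% Wilson interval reached 0.78 percentage points to either side, which covers counting error only. Iglv2 made up 8.94%, 15.8% and 8.42% of the summed FPKM in CD40LΔ5 libraries and 17.6%, 8.04% and 9.46% in WT libraries.

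The variable genes were then set beside Iglc2, the constant gene to which Iglv2 and Iglv3 mainly join. The main partners of Iglv1, Iglc3 and Iglc1, were not analysed here. The sum of Iglv2 and Iglv3 over Iglc2 was 0.520, 0.459 and 0.614 in CD40LΔ5 libraries 1 to 3 and 0.532, 0.450 and 0.690 in WT libraries 1 to 3. Iglv1 over Iglc2, genes that rarely join, was 2.07, 0.951 and 3.32 in CD40LΔ5 libraries and 1.22, 2.37 and 3.19 in WT libraries. The groups overlapped in both ratios, and only the Iglv1 ratio spanned more than a 3-fold range.

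As a share of all reads on genes, the kappa genes together (Igkc, 105 Igkv genes and 5 Igkj segments) took 1.38%, 0.815% and 3.16% in CD40LΔ5 libraries 1 to 3 and 1.06%, 2.74% and 3.02% in WT libraries 1 to 3. The 4 lambda genes took 0.133%, 0.123% and 0.239% in CD40LΔ5 libraries and 0.137%, 0.203% and 0.202% in WT libraries. The 95% Wilson intervals were within 0.0065 percentage points for kappa and 0.0018 for lambda. Among variable genes only, lambda held 11.3%, 14.3% and 10.2% of the kappa and lambda variable reads in CD40LΔ5 libraries and 13.4%, 9.79% and 9.22% in WT libraries. This share had a narrower range than Iglc2 over Igkc, with the same 2 libraries on top.

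**Figure D4:**
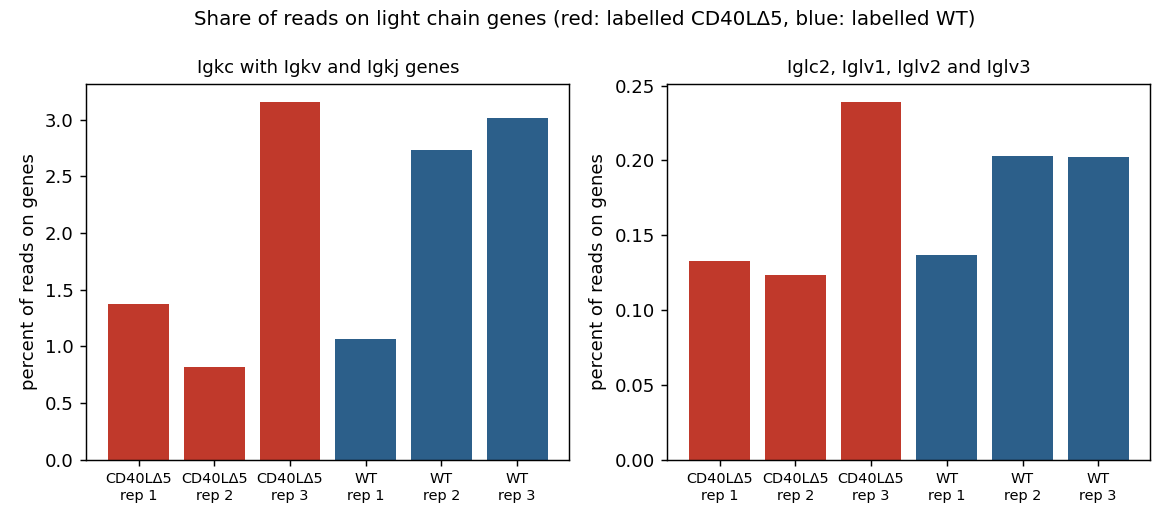
Kappa and lambda genes as a percent of all reads on genes in each library, CD40LΔ5 left of WT. Kappa genes range from 0.815% to 3.16% and the 4 lambda genes from 0.123% to 0.239%.

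The heavy chain of IgM, the light chain's partner on naive B cells, varied little. Ighm had 5149, 5735 and 6285 FPKM in CD40LΔ5 libraries 1 to 3 and 7148, 5342 and 5246 FPKM in WT libraries 1 to 3. Iglc2 over Ighm stayed between 0.156 and 0.238, whereas Igkc over Ighm was 4.42, 2.51 and 8.30 in CD40LΔ5 libraries and 2.62, 9.02 and 9.59 in WT libraries. Measured against the sum of 7 heavy chain constant genes (Ighm, Ighg1, Ighg2b, Ighg2c, Ighg3, Igha and Ighe), Igkc was 1.56, 2.06 and 1.61 in CD40LΔ5 libraries and 2.06, 2.02 and 1.41 in WT libraries. As labelled the groups overlapped in this ratio; in the table's placement they did not, at 2.05 ± 0.0247 in the MUT set and 1.53 ± 0.106 in the WT set. Ighg1, the IgG1 constant gene, had 4054, 111 and 21224 FPKM in CD40LΔ5 libraries and 149, 11131 and 26754 FPKM in WT libraries.

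Summed reads of the 105 kappa variable genes over Igkc reads were 0.856, 0.719 and 0.869 in CD40LΔ5 libraries 1 to 3 and 0.736, 0.747 and 0.849 in WT libraries 1 to 3. This was the other ratio in which the table's sets did not overlap, at 0.734 ± 0.0139 in the MUT set and 0.858 ± 0.0101 in the WT set. As labelled, the groups overlapped.

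In 11 of 12 plasma cell markers the 2 lowest libraries were CD40LΔ5 replicate 2 and WT replicate 1, as in Igkc and Iglv1. The exception was Tnfrsf17, the BCMA receptor, where CD40LΔ5 replicate 1 was lower than WT replicate 1. The share of all genes with these 2 libraries lowest was not counted, so nothing is read from the 11 of 12. The ratio of the highest to the lowest library ran from 1.21 for Irf4, a transcription factor that B cells also express, to 6.65 for Cd28. Igj, which encodes the chain that joins IgM or IgA units in secreted antibody, had 1404, 653 and 3495 FPKM in CD40LΔ5 libraries 1 to 3 and 816, 3627 and 3523 FPKM in WT libraries 1 to 3. The summed level of the 12 plasma cell markers, all found and none at 0, was 2248, 1222 and 5114 FPKM in CD40LΔ5 libraries and 1453, 5253 and 5039 FPKM in WT libraries. Most of this sum came from Igj and Mzb1, and the other 10 markers summed to 356, 195 and 585 FPKM in CD40LΔ5 libraries and 225, 521 and 633 FPKM in WT libraries. CD40LΔ5 replicate 2 and WT replicate 1 were lowest in both sums. Fewer plasma cells and less RNA per plasma cell cannot be told apart in bulk samples, and the part of plasma cell RNA in the light chain levels was not tested. Sums over T cell markers (8 of 8 found) were 39.3 to 51.9 FPKM in CD40LΔ5 libraries and 43.2 to 51.9 FPKM in WT libraries. Macrophage markers (7 of 8) summed to 88.5 to 112 FPKM in CD40LΔ5 libraries and 69.4 to 268 FPKM in WT libraries, highest in WT replicate 1. Erythroid markers (4 of 5) summed to 124 to 425 FPKM in CD40LΔ5 libraries and 279 to 450 FPKM in WT libraries. None of the markers found was at 0 in all libraries.

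The pattern of Igkc over the 6 libraries was compared with that of 11020 genes, with immunoglobulin genes and Igj left out. The most alike were Crybb1, Sdf2l1, Hsp90b1, Sdc1 and Pycr1. Their mean absolute difference from Igkc in centred log2 level was 0.079, 0.098, 0.12, 0.12 and 0.14, on a log2 range of 1.86 for Igkc. By the same measure Iglv1 was 0.11 from Igkc, Iglv2 0.56, Iglv3 0.57 and Iglc2 0.64. Hsp90b1, a chaperone of the endoplasmic reticulum, had 174.5, 97.0 and 346.7 FPKM in CD40LΔ5 libraries 1 to 3 and 129.4, 248.0 and 331.2 FPKM in WT libraries 1 to 3. Sdc1, the plasma cell surface marker CD138, had 16.6, 10.1 and 33.6 FPKM in CD40LΔ5 libraries and 11.6, 25.8 and 32.7 FPKM in WT libraries. Crybb1 lay between 0.0457 and 2.51 FPKM, a far wider fold range than that of Igkc, and the measure is on the log2(FPKM + 1) scale, which compresses low values. Among the same 11020 genes, the nearest to Iglc2 were Mrpl46, Alyref2, Itgb1bp1, Trappc2l and Hint1, each between 0.036 and 0.043 away on a log2 range of 0.54. With so many genes compared over 6 libraries, close matches can arise without any link, and a link was not tested. Iglv3 was 0.19 and Iglv2 0.28 from Iglc2.

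**Figure D5:**
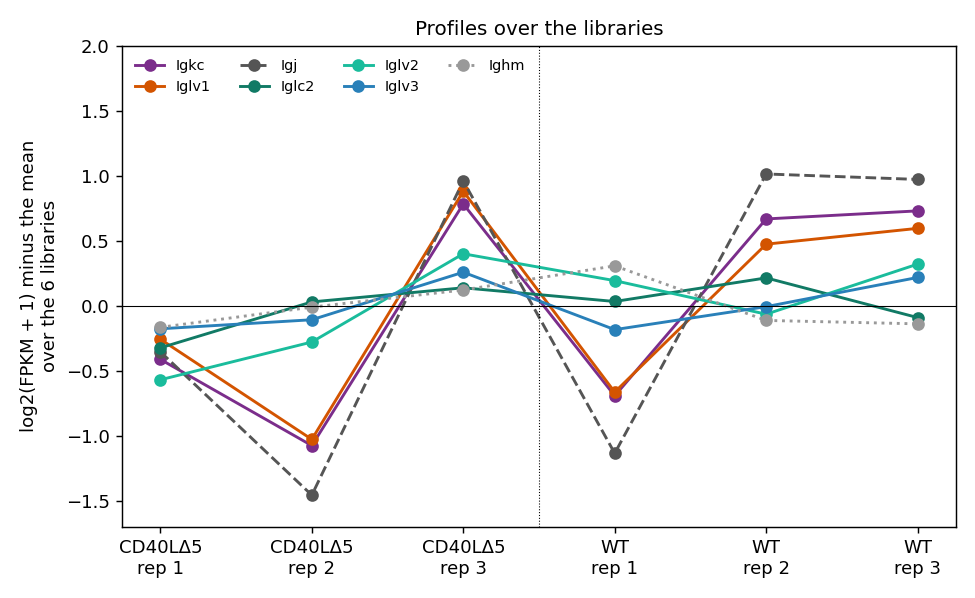
Centred log2 level of the light chain genes and partner genes in each library, the CD40LΔ5 libraries left of the WT libraries. Igkc and Iglv1 dip in CD40LΔ5 replicate 2 and WT replicate 1, where Iglc2 and Ighm do not.

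Genes that act before or beside the light chain were then examined as lists, with 0 genes called in any of the 5 lists under either placement by limma. Of all genes tested, 55.5% had a positive log2 difference as labelled and 62.0% in the table's placement. Genes of a list can vary together, and the counts of directions below were not tested. Among surrogate light chain and receptor partner genes, 5 of 9 were tested, with 1 positive and 4 negative log2 differences and a median of -0.031 as labelled, beside 0.014 over all genes tested. In the table's placement 4 were positive and 1 negative, with a median of 0.10, beside 0.049 over all genes tested. As labelled, 4 were positive and 1 negative without CD40LΔ5 replicate 1 (median 0.037) and without WT replicate 1 (median 0.070). Cd79a and Cd79b, the signalling chains of the B cell receptor, averaged 1742 ± 126 and 1268 ± 62.8 FPKM in CD40LΔ5 libraries and 1720 ± 252 and 1295 ± 60.1 FPKM in WT libraries (SD, n = 3 each). Of the surrogate light chain genes of B cell precursors, Vpreb2 was at 0 in all 6 libraries, Igll1 at most 0.183 and Vpreb1 at most 0.314 FPKM. Vpreb3, in the same list, was not near the floor, at 103 to 148 FPKM. Igj averaged 1851 ± 1473 FPKM in CD40LΔ5 libraries and 2655 ± 1593 FPKM in WT libraries, a log2 difference of -0.57 ± 0.78 (SE), its groups overlapping. In the table's placement the Igj log2 difference was -1.05 ± 0.68 (SE), and the sets overlapped. Of the joining segments, the 5 kappa segments of 11 genes named were tested. Their log2 differences were negative for all 5 as labelled (median -0.12) and positive for all 5 in the table's placement (median 0.44). As labelled, all 5 turned positive without CD40LΔ5 replicate 3 (median 0.074) and without WT replicate 2 (median 0.11). Igkj5, the segment nearest to Igkc, averaged 859 ± 270 FPKM in CD40LΔ5 libraries and 963 ± 260 FPKM in WT libraries, and 1054 ± 256 FPKM in the MUT set and 768 ± 147 FPKM in the WT set. Igkj2 averaged 651 ± 229 FPKM in CD40LΔ5 libraries and 707 ± 238 FPKM in WT libraries, and 823 ± 215 FPKM in the MUT set and 535 ± 51.6 FPKM in the WT set (limma adjusted p = 0.356 for the sets). The kappa joining segments together had 3415, 4223 and 2493 reads in CD40LΔ5 libraries and 2829, 4626 and 3327 in WT libraries. Their order over the libraries was not that of Igkc. These segments are short and held few reads beside Igkc, 3415 against 199852 in CD40LΔ5 replicate 1. How reads over them were assigned is not given, so their levels and directions may not measure kappa transcripts.

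Of the 10 rearrangement and editing genes 7 were tested, 6 with positive differences as labelled (median 0.057). In the table's placement 4 were positive and 3 negative (median 0.024), and 2 positive and 5 negative when values were rescaled without immunoglobulin genes or by median of ratios. Rag1 and Rag2, the recombinase that assembles light chain genes, were at most 0.774 and 0.0706 FPKM in any library. Prkdc, a kinase of DNA end joining, averaged 6.43 ± 0.527 FPKM in CD40LΔ5 libraries and 5.40 ± 0.441 FPKM in WT libraries (limma adjusted p = 0.999993). Its log2 difference was 0.22 ± 0.10 (SE) as labelled and -0.051 ± 0.12 in the table's placement. Xrcc5, which with Xrcc6 binds DNA ends, averaged 13.4 ± 0.953 FPKM in CD40LΔ5 libraries and 12.9 ± 1.70 FPKM in WT libraries. Of the 16 transcription factors and cofactors 15 were tested, 11 positive and 4 negative as labelled (median 0.047), but 5 positive and 10 negative without WT replicate 2. In the table's placement 4 were positive and 11 negative (median -0.061). Pou2af1, a coactivator of immunoglobulin promoters, averaged 247 ± 28.0 FPKM in CD40LΔ5 libraries and 265 ± 26.7 FPKM in WT libraries, and Pax5, which maintains B cell identity, 193 ± 18.1 FPKM in CD40LΔ5 libraries and 178 ± 7.86 FPKM in WT libraries. Spib, an ETS factor, averaged 336 ± 25.2 FPKM in CD40LΔ5 libraries and 330 ± 35.3 FPKM in WT libraries. Ikzf3 averaged 135 ± 13.5 FPKM in CD40LΔ5 libraries and 121 ± 10.3 FPKM in WT libraries, and Pou2f2, which binds the octamer of immunoglobulin promoters, 69.1 ± 7.62 FPKM in CD40LΔ5 libraries and 63.0 ± 3.82 FPKM in WT libraries.

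All 10 genes for folding and assembly of the chains were tested, and their log2 differences were negative for all 10 under both placements. Of all genes tested, 55.5% were positive as labelled and 62.0% in the table's placement. The medians of the list were -0.19 as labelled and -0.43 in the table's placement, beside 0.014 and 0.049 over all genes tested. Mzb1, a chaperone of antibody assembly, averaged 632 ± 353 FPKM in CD40LΔ5 libraries and 800.4 ± 355 FPKM in WT libraries. Hspa5, which holds unpaired chains in the endoplasmic reticulum, averaged 278 ± 82.1 FPKM in CD40LΔ5 libraries and 322 ± 81.0 FPKM in WT libraries. Pdia4, which forms disulphide bonds, averaged 188 ± 45.3 FPKM in CD40LΔ5 libraries and 217 ± 26.7 FPKM in WT libraries, and Calr 340 ± 92.1 FPKM in CD40LΔ5 libraries and 373 ± 45.7 FPKM in WT libraries. The smallest adjusted p in this list was 0.356 (limma, table's placement). Without CD40LΔ5 replicate 2, 6 of the 10 differences as labelled were positive and 4 negative, with a median of 0.049.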

How the data were processed

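RNA-seq of 6 libraries was analysed, 3 labelled CD40LΔ5 and 3 labelled WT. The authors deposited FPKM per gene and library, with a table of group means in FPKM; per the submitters' processing notes, CASAVA 1.8.2, STAR and DESeq2 were used with mm9. The coordinates are those of GRCm38: 34490 of 35275 gene IDs were in GENCODE M21, and 24932 had the same start and end. FPKM steps gave whole reads for 100% of values within 0.01 reads, and read totals and shares come from those.

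Differences were fitted with limma 3.58.1 in R 4.3.3 (empirical Bayes with a trend, two-sided) on log2(FPKM + 1), over the 11252 genes that averaged 1 FPKM or more, adjusted by Benjamini-Hochberg, and called at 0.05. This scale understates the change of low genes. Count models were not the main test because the unit is FPKM. Ratios were not tested. The planned ratio of 3 lambda constant genes to Igkc was reduced to Iglc2 over Igkc, since Iglc1 and Iglc3 were not analysed here, nor were Ighd, Iglc4, 5 Iglj segments, Pou2f1, Adgre1 and Hbb-b1.

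The members and lists were chosen with earlier results of these data known. Named genes are the members, the partners Ighm and Igj, and the 5 genes nearest to Igkc and to Iglc2. Immunoglobulin genes and Igj were left out of that search. Of each list, up to 3 genes with the highest mean and up to 2 with the smallest p as labelled are also named. Ighg1, Vpreb1, Vpreb2, Vpreb3, Igll1, Rag1, Rag2, Tnfrsf17, Irf4 and Cd28 were named after their values were seen. The fitting was tested on simulated data. Alternatives were the pseudocount, the filter, the scaling, the trend, voom on reads, the replicate block and each library left out. Counts over the plasma cell markers, and their sum without Igj and Mzb1, were added after seeing the data.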

Additional observations from a re-analysis of the deposited data

How the results depend on the processing

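0 light chain members and 0 list genes were called under any setting run, and no member changed direction under another pseudocount, filter, scaling, trend or voom. With 1 library left out, log2 differences as labelled (CD40LΔ5 minus WT) were -0.98 to -0.050 for Igkc, -0.20 to 0.032 for Iglc2, -0.78 to 0.18 for Iglv1, -0.57 to -0.089 for Iglv2 and -0.15 to 0.086 for Iglv3; as placed in the table (MUT minus WT) they were -1.25 to -0.38, 0.069 to 0.30, -1.25 to -0.50, -0.41 to 0.074 and -0.34 to -0.12 for the same genes. Iglc2 as labelled turned positive without CD40LΔ5 replicate 1 and Iglv1 without CD40LΔ5 replicate 2, and Iglv3 as labelled and Iglv2 in the table's placement each turned positive in 3 of 6 such fits. The log2 Iglc2 to Igkc difference as labelled, 0.37, ranged from -0.0955 to 0.82 with 1 library left out; in the table's placement it was 0.92, from 0.60 to 1.38, and 0.0845 when the lambda variable genes replaced Iglc2. The Iglv1 share of lambda variable FPKM differed by -1.38 points as labelled, from -5.88 to 3.52, and by -8.47 points in the table's placement, from -13.6 to -5.34. The planned ratio of the summed lambda constant genes to Igkc could not be formed beyond Iglc2, since Iglc1 and Iglc3 were not analysed here. Over all genes in the table's placement, 3 calls became 5 with a pseudocount of 0.1, 1 without a filter, 0 with a mean of at least 5 FPKM (987 at an unadjusted p under 0.05) and 1 with voom, and 1 to 16 with a library left out (16 without CD40LΔ5 replicate 1, 13 without WT replicate 2, 1 without CD40LΔ5 replicate 2); the cause was not tested. Scaling without immunoglobulin genes, or by median of ratios, turned its 2 higher and 1 lower calls into 2 and 2, and the share of genes higher, 62.0%, into 52.0% and 51.4%. Deviations of same-numbered libraries from their group means correlated at -0.38, 0.058 and 0.38 for numbers 1, 2 and 3. Of the 3 numbers only the libraries numbered 3 correlated best with each other. With 3 libraries per group, whose deviations sum to 0, these values cannot decide whether the numbers pair the libraries. With the replicate block, limma called 0 members and 0 genes as labelled, with 210 genes at an unadjusted p under 0.05. The lowest count behind a member's value was 1917 reads.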
